A study of Mus musculus with 3 samples.

Results

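The 10 genes described here encode the cytosolic Hsp90 proteins (Hsp90aa1, Hsp90ab1), proteins of the Hsp70 and Hsp110 families (Hspa8, Hspa5, Hspa4, Hsph1), the J-domain proteins Dnaja1 and Dnajb1, the mitochondrial co-chaperonin Hspe1 and the small heat shock protein Cryab. They were chosen by symbol, and all 10 were found among the 32285 genes of the count matrices. Nuclei came from frozen mouse hippocampus and were sequenced with 10x 3' version 3 chemistry in 3 libraries, 1 per group, and 4 mice gave both hippocampi to each pool. Mice had received doxorubicin plus ACY-1083, doxorubicin alone or nothing (control). Doxorubicin is an anticancer drug that traps topoisomerase II on DNA, and ACY-1083 blocks the cytosolic deacetylase HDAC6. The title poses the question of whether HDAC6 inhibition reverses the cognitive impairment that follows doxorubicin. Dose, sex, strain and age are not stated in the labels. There was no replicate library, so no test between groups was made, and every interval below covers counting error only.

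Chaperones bind unfolded or partly folded proteins and help them fold, refold or be handed on for degradation. Hsp70 proteins take up clients that J-domain proteins bring to them, Hsp110 proteins exchange their nucleotide, and Hsp90 acts late, on kinases and steroid receptors among others. Heat shock factor 1 raises the transcription of many of these genes when misfolded proteins accumulate, whereas Hspa5, the Hsp70 of the endoplasmic reticulum, belongs to the unfolded protein response. HDAC6 deacetylates tubulin and Hsp90, and it binds ubiquitin chains on misfolded protein.

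RefSeq promoters (GRCm38.p6, 250 bases before to 50 after a start) were matched for 6 of the 10 genes, in 10 windows. Those of Hspa5, Hsph1 and Hspe1 are shown because they carry the motifs by which stress response is usually recognised, and because these genes differed in direction between the doxorubicin and control libraries. Capitals mark matches, on either strand, to the heat shock element with its units head to head (GAANNTTC) or tail to tail (TTCNNGAA), or to the endoplasmic reticulum stress response element (CCAAT, 9 bases of any kind, then CCACG).
Hspa5: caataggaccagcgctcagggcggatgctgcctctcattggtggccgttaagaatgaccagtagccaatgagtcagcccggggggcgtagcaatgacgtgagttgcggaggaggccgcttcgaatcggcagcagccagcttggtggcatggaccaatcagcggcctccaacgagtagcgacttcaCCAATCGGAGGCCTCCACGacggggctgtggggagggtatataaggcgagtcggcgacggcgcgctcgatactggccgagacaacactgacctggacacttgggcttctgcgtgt
Hsph1: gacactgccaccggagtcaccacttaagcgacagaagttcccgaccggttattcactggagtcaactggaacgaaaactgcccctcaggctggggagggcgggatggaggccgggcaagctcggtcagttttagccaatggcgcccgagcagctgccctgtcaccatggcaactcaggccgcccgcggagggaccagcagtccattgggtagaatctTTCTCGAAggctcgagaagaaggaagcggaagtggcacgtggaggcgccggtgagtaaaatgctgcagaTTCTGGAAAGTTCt
Hspe1: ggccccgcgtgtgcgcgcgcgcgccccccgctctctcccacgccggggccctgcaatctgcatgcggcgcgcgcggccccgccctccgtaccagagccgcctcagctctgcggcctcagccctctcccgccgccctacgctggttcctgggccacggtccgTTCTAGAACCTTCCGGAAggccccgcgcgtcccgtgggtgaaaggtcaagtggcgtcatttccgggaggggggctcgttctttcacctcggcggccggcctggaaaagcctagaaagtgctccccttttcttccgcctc
The Hspa5 window is chr2:34771840-34772139 on the plus strand, the Hsph1 window chr5:149636287-149636586 on the minus strand and the Hspe1 window chr1:55087898-55088197 on the plus strand. The 3-unit heat shock element, in which a head-to-head and a tail-to-tail pair overlap by 1 unit, lay in the windows of Hsph1 and Hspe1 and in 0.603% of all 32851 promoter windows. Head-to-head units were in 7.86% and tail-to-tail units in 8.52% of all windows. The endoplasmic reticulum stress response element, which contains a CCAAT box, lay in the Hspa5 window and in 0.119% of all windows. Of the other genes, Dnaja1 had head-to-head units in the first of its 3 windows, and the windows of Hspa4 and Dnajb1 held neither form. A match describes the letters in these windows and says nothing of occupancy.

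The matrices held 12192, 12221 and 10909 barcodes in the doxorubicin plus ACY-1083, doxorubicin and control libraries, with 62151258, 21458785 and 19175447 UMIs, the unique molecules counted. After filters 11846, 11647 and 10455 nuclei were kept, in 25 clusters. Named by marker genes, 12 classes had at least 100 nuclei in every library, and their names stand for likeness to those markers. Own markers were higher in the class than in the other nuclei for all 8 dentate gyrus granule, 8 CA1, 11 GABAergic, 10 oligodendrocyte and 10 astrocyte markers in each library. Subicular or cortical excitatory neurons had 10 of 11 in each library, CA2/CA3 neurons 10, 8 and 10 of 11, and neurons with thalamic or habenular markers 10, 9 and 9 of 13, in doxorubicin plus ACY-1083, doxorubicin and control. The doxorubicin plus ACY-1083 library stood apart. It was made with Cell Ranger 5.0.0 and the others with 4.0.0, per the file headers, and it held 5024 UMIs per kept nucleus against 1740 and 1737. Its nuclei lay mostly in other clusters for granule, CA1, CA2/CA3, oligodendrocyte and astrocyte classes (clusters 23, 22, 24, 20 and 5, against 0, 9, 7, 2 and 4 for the other libraries). Libraries shared 29 to 46 barcodes by pair. Ttr, the choroid plexus transcript, had 760.1, 2976 and 1359 CPM in granule neurons of the doxorubicin plus ACY-1083, doxorubicin and control libraries. Those nuclei held 4890, 1519 and 1475 UMIs on average, and the part of this depth in the Ttr values was not tested. Whether this Ttr was free RNA was not tested.

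Levels are CPM, the UMIs of a gene scaled by all UMIs of the class or library, with exact 95% Poisson intervals where given, and they are not scaled by gene length. The most counted was Hsp90ab1, the constitutive cytosolic Hsp90 (chr17:45567775-45573271, minus strand), at 192 CPM in doxorubicin plus ACY-1083, 479 CPM in doxorubicin and 449 CPM in control, from 11452, 9713 and 8153 UMIs. Hsp90aa1, the stress-inducible cytosolic Hsp90 (chr12:110690605-110702728, minus strand), had 133, 319 and 299.7 CPM from 7916, 6468 and 5442 UMIs in the same libraries. The doxorubicin plus ACY-1083 library was lowest for both in CPM, and the other libraries lay within 1.07-fold of each other.

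Among Hsp70 and Hsp110 genes, Hspa8, the constitutive cytosolic Hsp70 (chr9:40800984-40810087), had 136, 368 and 321 CPM in doxorubicin plus ACY-1083, doxorubicin and control. Hspa5 (chr2:34771970-34777547) had 49.8, 134 and 113 CPM. Hsph1, an inducible Hsp110 (chr5:149614287-149636376), had 44.4, 77.2 and 87.1 CPM. Hspa4, another Hsp110 (chr11:53259814-53300457), had 87.3, 68.1 and 71.6 CPM and was the only one of the 10 genes with its highest CPM in doxorubicin plus ACY-1083. Counted as UMIs per nucleus, each of the 10 genes was highest in that library, as with Hsph1 at 223, 134 and 151 UMIs per 1000 nuclei.

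The J-domain protein gene Dnaja1 (chr4:40722150-40737149) had 82.9, 193.6 and 204 CPM in doxorubicin plus ACY-1083, doxorubicin and control. Dnajb1, the J-domain partner of inducible Hsp70 (chr8:83608193-83612653), was sparse at 5.75, 10.96 and 12.1 CPM from 342, 222 and 219 UMIs. Hspe1 (chr1:55088132-55091307) had 31.1, 70.3 and 62.1 CPM, and Cryab (chr9:50751325-50756636) had 18.4, 40.9 and 30.6 CPM. Annotated genes on the opposite strand overlap 3 of these genes, Smu1 for Dnaja1, Hspd1 for Hspe1 and Hspb2 for Cryab. The 3' chemistry keeps the strand of a read, but the strand setting of the counting is not stated in the sources used, so these counts are uncertain in that respect.

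**Figure D1:**
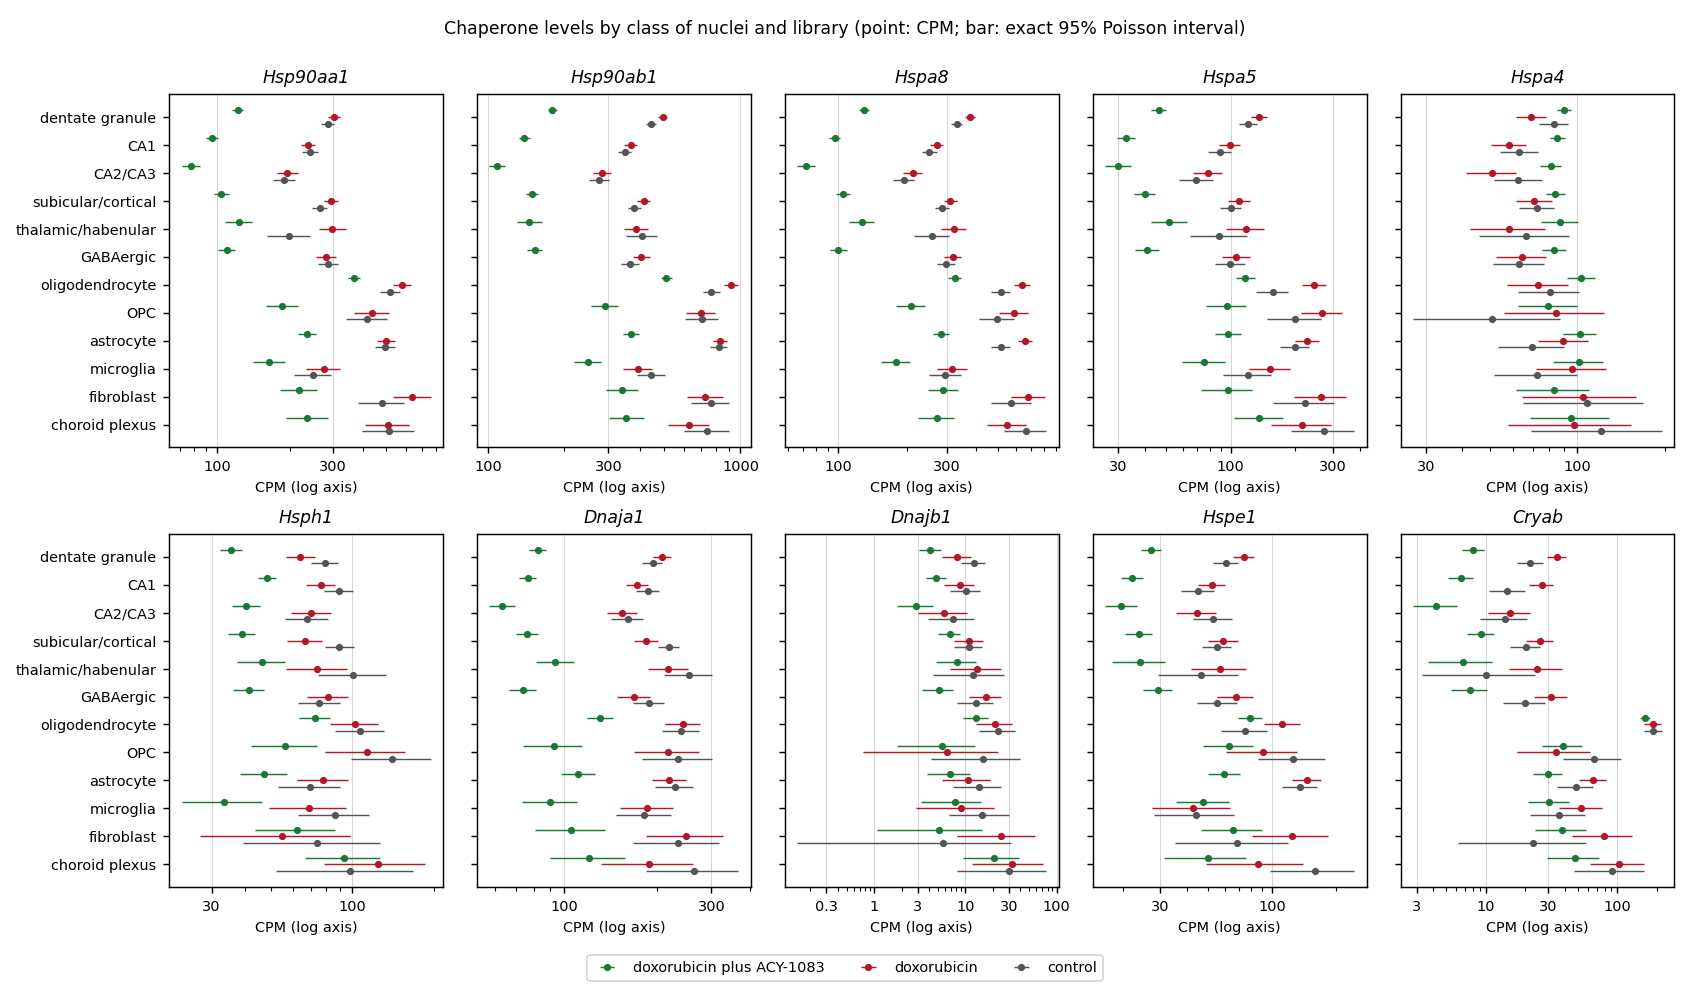
CPM of each of the 10 genes (x axis, logarithmic) in 12 classes of nuclei (y axis) for the doxorubicin plus ACY-1083, doxorubicin and control libraries, with exact 95% Poisson intervals. Oligodendrocytes, astrocytes, fibroblasts and choroid plexus lie to the right for the Hsp90 genes and Hspa8, CA2/CA3 neurons lie at or near the left, and Cryab is highest in oligodendrocytes.

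Across classes, CPM of the Hsp90 genes and Hspa8 was higher in glia than in neurons. Pooled over 4 glial classes against 6 neuronal classes, Hsp90aa1 had 275 and 104 CPM in doxorubicin plus ACY-1083, 476 and 268 CPM in doxorubicin, and 442 and 256 CPM in control. That was 2.65-fold (interval 2.51 to 2.79), 1.77-fold (1.67 to 1.88) and 1.73-fold (1.61 to 1.85). For Hspa8 the glial over neuronal ratios were 2.63, 1.89 and 1.68, and for Hspa5 2.64, 2.02 and 1.70. Hsph1 differed less, at 1.38, 1.24 and 1.13, with the control interval of 0.980 to 1.31 holding 1. CA2/CA3 pyramidal neurons were the lowest class for Hsp90aa1, Hsp90ab1, Hspa8 and Hspa5 in each of the 3 libraries. In control, Hsp90aa1 ordered as oligodendrocytes 517, choroid plexus epithelium 512, astrocytes 492, fibroblasts 478 and oligodendrocyte precursor cells 414 CPM, with no neighbours separated by their ratio's interval among them. A step separated these from granule and GABAergic neurons (287 CPM each), followed by subicular or cortical neurons at 265, microglia at 248, CA1 neurons at 241, thalamic or habenular neurons at 197 and CA2/CA3 neurons at 189 CPM, none separated from its neighbour.

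This order ran against the depth of the classes. Over the 12 classes Spearman's rho between CPM and mean UMIs per nucleus was -0.91, -0.97 and -0.80 for Hsp90aa1, and -0.98, -0.94 and -0.81 for Hspa8, in doxorubicin plus ACY-1083, doxorubicin and control. These are descriptions over classes that share a library, and CPM itself has the class total below the line. Counted per nucleus, these genes were no longer clearly higher in glia. In doxorubicin plus ACY-1083 glia had less than neurons, with 589.9 and 707 Hsp90aa1 UMIs and 591 and 714 Hspa8 UMIs per 1000 nuclei. Per 1000 nuclei, glia and neurons had 515 and 531 Hsp90aa1 UMIs in doxorubicin, and 478 and 497 in control. Hspa8 had 628 and 607 UMIs per 1000 glial and neuronal nuclei in doxorubicin, and 505 and 541 in control. Hsph1 was lower in glia by this count, with 94.96 against 139.8 in doxorubicin and 101 against 160 in control, as was Dnaja1, with 238 against 363 and 241 against 379. Glial nuclei of those libraries held 1083 UMIs on average, and neurons 1977 in doxorubicin and 1944 in control. Microglia, the glial class with 2127 and 2189 UMIs per nucleus in doxorubicin and control, had 275 and 248 CPM of Hsp90aa1, within the neuronal range. In doxorubicin plus ACY-1083, with 3548 UMIs per nucleus, microglia had 164 CPM, above every neuronal class. The next class, thalamic or habenular neurons at 123 CPM, was separated from them by the ratio's interval. The part of depth in these orders was not tested.

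**Figure D2:**
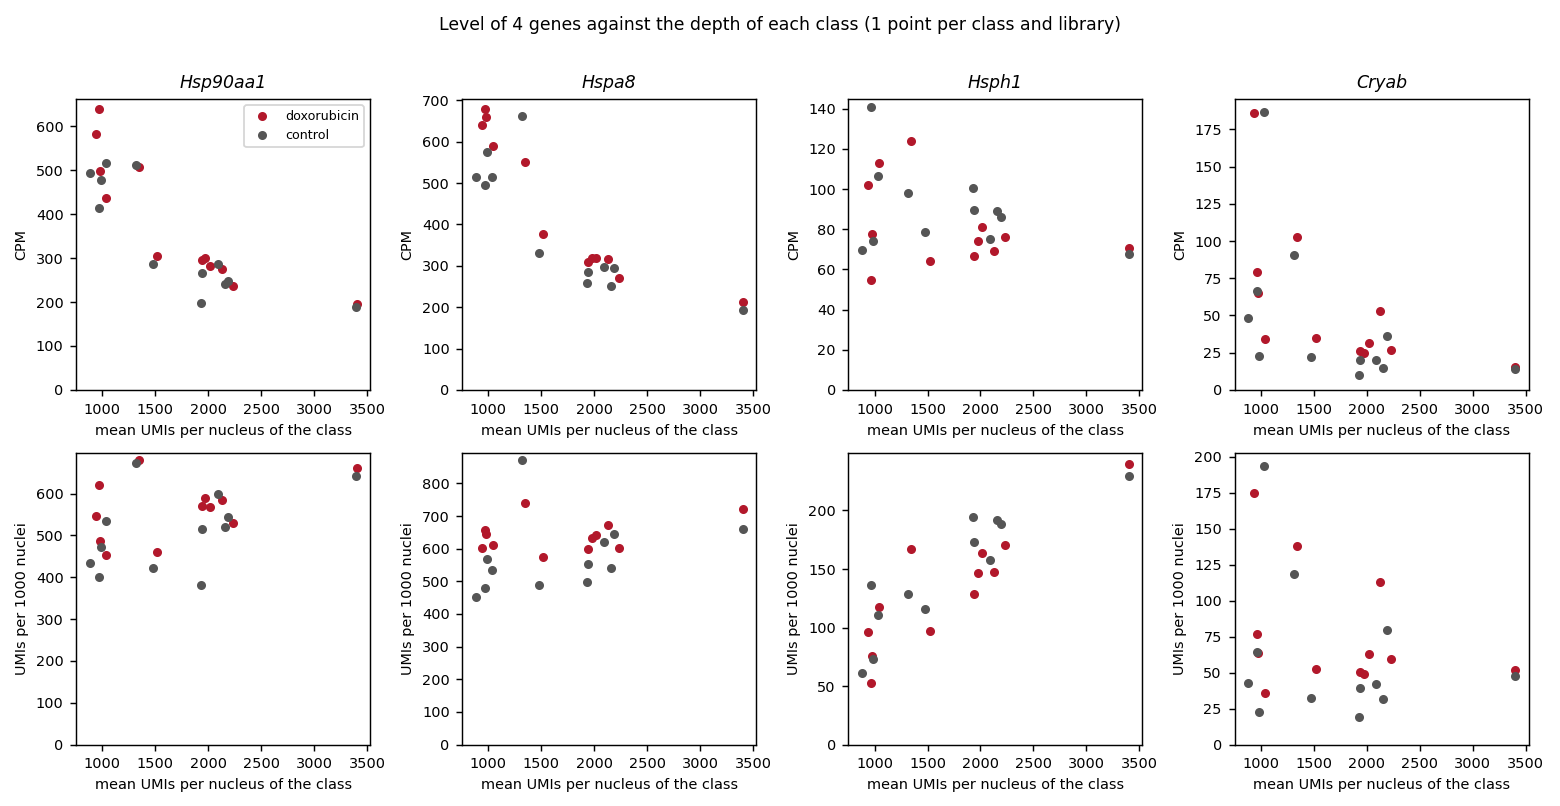
Level of Hsp90aa1, Hspa8, Hsph1 and Cryab in each class against the class's mean UMIs per nucleus, as CPM (upper row) and as UMIs per 1000 nuclei (lower row), for the doxorubicin and control libraries, 1 point per class and library. CPM of Hsp90aa1 and Hspa8 falls with depth while their UMIs per nucleus show no such fall, and UMIs of Hsph1 per nucleus increase with depth. Oligodendrocytes are the highest class for Cryab in both rows.

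Cryab, which prevents aggregation of unfolded protein and is known as an oligodendrocyte transcript in brain, was highest in 1 class in each library. Oligodendrocytes had 163, 186 and 187 CPM in doxorubicin plus ACY-1083, doxorubicin and control, from 507, 175 and 163 UMIs. CA2/CA3 neurons had 4.204, 15.27 and 14.1 CPM. The oligodendrocyte level was separated from the next class by its ratio's interval in each of the 3 libraries. Per 1000 nuclei, glia also had more Cryab than neurons, with 189 and 48.9 in doxorubicin plus ACY-1083, 106 and 54.4 in doxorubicin and 104 and 35.4 in control.

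The share of Hsp90aa1 among the UMIs of both cytosolic Hsp90 genes was nearly constant. It was 40.9% (exact Clopper-Pearson interval 40.2 to 41.6) in doxorubicin plus ACY-1083, 39.97% (39.2 to 40.7) in doxorubicin and 40.03% (39.2 to 40.9) in control. By class it ran from 37.4% to 46.9% in doxorubicin. Thalamic or habenular neurons stood lower in control, at 32.7% (27.4 to 38.3), against 43.6% (39.4 to 47.8) in doxorubicin and 45.6% (41.5 to 49.9) in doxorubicin plus ACY-1083. Those control values rest on 98 Hsp90aa1 and 202 Hsp90ab1 UMIs.

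The doxorubicin library was compared with control for 83 pairs of a member and a class that had at least 100 UMIs in both libraries together. Ratios lay above 1 in 55 pairs and below 1 in 28, with a median log2 ratio of 0.10, against -0.04 over the 49941 pairs of all genes. At least 1.5-fold higher in doxorubicin were 4 pairs, where all genes gave 1.43%, and none was 1.5-fold lower, where all genes gave 1.37%. The counting interval lay above 1 in 15 pairs (18.1% of them) and below 1 in 4 (4.82%), against 5.38% and 8.33% of all pairs. In whole libraries 6 of the 10 genes had an interval above 1 and 2 below, against 9.08% and 19.2% of 13803 genes. None of the 10 reached 1.5-fold in whole libraries, higher (0.753% of all genes) or lower (0.565%). Such an interval says that the libraries differed by more than counting error, and mice or handling cannot be told apart from treatment. Fewer cells of a type in the tissue and less RNA per cell could also not be told apart in values of whole libraries. Intervals narrow as counts grow, and the shares of all genes were not matched to the 10 genes for count or intron length. The part of count and intron length in these shares was not tested. The 10 genes were also chosen with earlier results of these data known, so their shares are descriptions.

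The genes divided by direction, as the plot of ratios by class shows. The ratio of doxorubicin over control lay above 1 in 10 of 10 classes measured for Hspa5 and in 11 of 12 for Hspa8, with intervals above 1 in 1 and 4 of them and ratios in whole libraries of 1.18 (1.12 to 1.25) and 1.15 (1.11 to 1.18). In choroid plexus epithelium all 3 genes measured lay below 1, with a median log2 ratio of -0.24, and each interval held 1. Hspa5, under 100 UMIs there, had 216 CPM in doxorubicin and 271 CPM in control. Fibroblasts, also under 100 UMIs, had 263 and 222 CPM of Hspa5. Hspe1, the lid of the mitochondrial Hsp60 chamber, was above 1 in 6 of 7 classes (interval in 2) and at 1.13-fold (1.05 to 1.23) in all nuclei. The Hsp90 genes differed little, at 1.07-fold each, with Hsp90aa1 above 1 in 9 of 12 classes and Hsp90ab1 in 7 of 12 (intervals in 3 each). Hsph1 was at 0.887-fold (0.826 to 0.951) and Dnaja1 at 0.947-fold (0.905 to 0.991) in all nuclei, below 1 in 5 of 8 and 7 of 10 classes (intervals in 2 and 1). With TMM size factors Dnaja1 was at 0.979-fold (0.936 to 1.02). Hspa4 at 0.951-fold (0.881 to 1.03) and Dnajb1 at 0.908-fold (0.750 to 1.10) were within counting error of control.

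**Figure D3:**
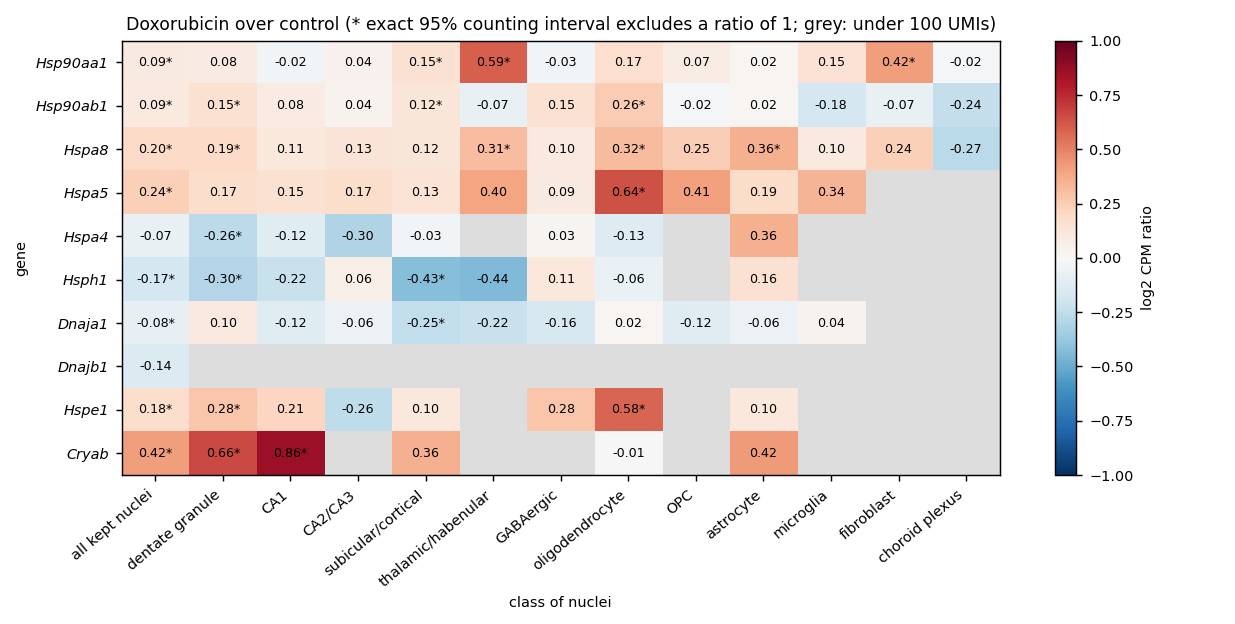
Log2 CPM ratio of doxorubicin over control for the 10 genes (rows) in all kept nuclei and 12 classes (columns). Red is higher and blue lower in doxorubicin, asterisks mark ratios whose exact 95% counting interval excludes 1, and grey cells had under 100 UMIs in both libraries together. Hspa8 and Hspa5 are red in nearly every class measured, and Hsph1 is blue in granule, subicular or cortical and thalamic or habenular neurons.

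Granule neurons of the dentate gyrus, the class with most nuclei, showed both directions, with an interval above 1 for 4 and below 1 for 2 of 9 genes measured (5.42% and 12% of all genes there). Hspa8 had 378 CPM in doxorubicin and 331 CPM in control (1.14-fold, 1.06 to 1.23), Hsp90ab1 491 and 442 CPM (1.11-fold, 1.04 to 1.19) and Hspe1 73.6 and 60.5 CPM (1.22-fold, 1.02 to 1.45). Hsph1 had 64.1 CPM in doxorubicin and 78.8 CPM in control (0.814-fold, 0.686 to 0.967), and Hspa4 69.1 and 82.9 CPM (0.833-fold, 0.706 to 0.984). The Hspa4 interval held 1 under 7 of 10 alternative settings and the Hsph1 interval under 2. Subicular or cortical excitatory neurons had 2 of 9 genes above and 2 below (5.04% and 7.69% of all genes). Those above were Hsp90aa1 (1.11-fold, 1.01 to 1.23) and Hsp90ab1 (1.09-fold, 1.002 to 1.19), and their intervals held 1 under 6 and 3 of the 10 alternatives. Hsph1 had 66.5 CPM in doxorubicin and 89.5 CPM in control there (0.743-fold, 0.611 to 0.902), and its interval stayed below 1 under each of the 10 alternatives. Dnaja1 had 184 CPM in doxorubicin and 218 CPM in control (0.843-fold, 0.748 to 0.949). Hsp90aa1 of thalamic or habenular neurons had 299 CPM in doxorubicin and 197 CPM in control (1.52-fold, 1.19 to 1.94), from 410 and 257 nuclei, and after thinning nuclei to 1000 UMIs the ratio was 1.23 (0.889 to 1.73).

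In oligodendrocytes 4 of 9 genes had an interval above 1 and none below (9.96% and 8.49% of all genes). Hspa5 had 244 CPM in doxorubicin and 157 CPM in control (1.56-fold, 1.25 to 1.94), Hspe1 112 and 74.5 CPM (1.498-fold, 1.09 to 2.07), Hspa8 641 and 515 CPM (1.25-fold, 1.10 to 1.41) and Hsp90ab1 918 and 768 CPM (1.20-fold, 1.08 to 1.33). With at least 600 genes per nucleus, which left fewer oligodendrocytes, Hspa5 was at 1.55-fold (1.08 to 2.25), Hspa8 at 1.05-fold (0.850 to 1.31) and Hsp90ab1 turned to 0.979-fold (0.817 to 1.17). In this class the ratio of all genes also ran with intron length (Spearman's rho -0.29 over 3544 genes), with medians of 1.16-fold for introns up to 2 kb and 1.07-fold for 2 to 5 kb. The introns of Hspa5 and Hspe1 lie in the shorter range and those of Hsp90ab1 and Hspa8 in the longer one, and the part of this in their ratios was not tested. Astrocytes had 659.5 CPM of Hspa8 in doxorubicin and 515 CPM in control (1.28-fold, 1.14 to 1.45), and 1.18-fold (0.992 to 1.41) with that filter. Pooled over glia, Hspa8 was 1.24-fold (1.15 to 1.34) and Hspa5 1.33-fold (1.17 to 1.501) higher in doxorubicin, against 1.10-fold (1.06 to 1.15) and 1.12-fold (1.04 to 1.20) over neurons. Whether glia and neurons differed in these ratios was not tested. Summed markers of other classes moved with the same comparison, at 11430 CPM in doxorubicin and 7964 CPM in control in oligodendrocytes, and at 7498 and 5621 CPM in granule neurons. Most of that difference was Ttr, which is among these markers. It had 5099 CPM in doxorubicin and 2026 CPM in control in oligodendrocytes, and 2976 and 1359 CPM in granule neurons. The part of RNA from other classes in the chaperone ratios was not tested.

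Among pairs with at least 100 UMIs the largest ratios belonged to Cryab in neurons. It had 34.7 CPM in doxorubicin and 21.8 CPM in control in granule neurons (1.59-fold, 1.20 to 2.12) and 26.7 and 14.6 CPM in CA1 neurons (1.82-fold, 1.25 to 2.69), from 140, 79, 92 and 42 UMIs. With at least 600 genes per nucleus the granule ratio was 1.35 (1.01 to 1.82). In oligodendrocytes, where its CPM was highest, Cryab was at 0.995-fold of control (0.799 to 1.24). The 10 oligodendrocyte markers, none of them at 0 in neurons, summed to 443 CPM in doxorubicin and 405 CPM in control in granule neurons, and to 285 and 254 CPM in CA1 neurons. Cryab came to 13.9 UMIs per 1000 oligodendrocyte-marker UMIs in oligodendrocytes of both the doxorubicin and control libraries. Over pooled neurons it came to 75.7 (68.5 to 83.5) in doxorubicin and 56.7 (49.8 to 64.3) in control. By class it was higher in doxorubicin in each neuronal class but CA2/CA3, which had 66.95 and 67.4. In each neuronal class the intervals of these libraries overlapped. Astrocytes had 82.6 in doxorubicin and 66.9 in control, so such values were not particular to neurons. The intervals leave out error in the marker count. The share of free RNA in these counts was not tested.

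**Figure D4:**
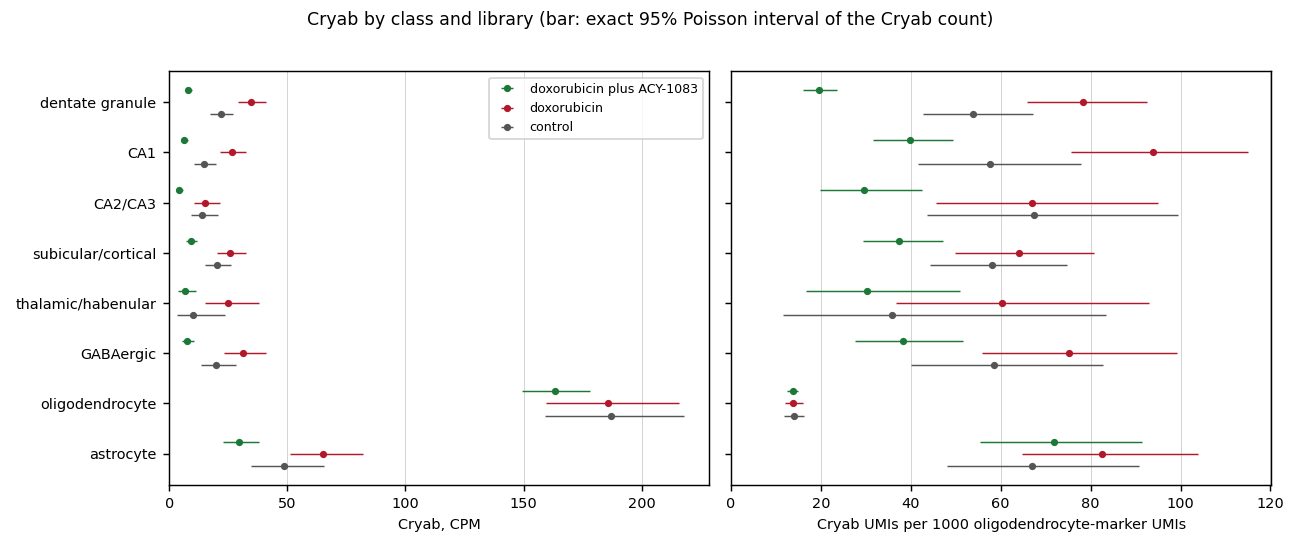
Cryab as CPM (left) and as UMIs per 1000 UMIs of 10 oligodendrocyte markers (right) in 8 classes for the doxorubicin plus ACY-1083, doxorubicin and control libraries, with exact 95% Poisson intervals of the Cryab count. Oligodendrocytes have the highest CPM and the lowest Cryab per marker UMI, and granule and CA1 neurons lie higher in doxorubicin than in control on both axes.

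As the share of nuclei with a UMI, after thinning each nucleus to 1000 UMIs and leaving out shallower ones (1077, 3264 and 2886 nuclei), Hspa8 was found in 16.9% (16.2 to 17.6) of doxorubicin plus ACY-1083, 29.2% (28.2 to 30.2) of doxorubicin and 26.5% (25.6 to 27.6) of control nuclei. Without thinning these shares were 47.6%, 45.8% and 40.8%. Thinning evens out depth but leaves the make-up of each library's UMIs, so shares in doxorubicin plus ACY-1083 carry the same limit as its CPM. Hsph1 was found in 4.58%, 6.92% and 8.07% of the thinned nuclei and Cryab in 3.51%, 3.39% and 2.27%. Oligodendrocytes had Cryab in 17.1%, 11.4% and 9.95% of thinned nuclei. Granule neurons, a class not known for Cryab, had it in 0.895%, 3.34% and 2.15%. The part of free RNA in these shares was not tested. Median UMIs per nucleus before thinning were 1285, 668 and 694.5 in oligodendrocytes and 4441.5, 1423 and 1363 in granule neurons.

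Of the other chaperone genes, 15 co-chaperones of Hsp90 and other Hsp90 genes were measured in whole libraries, and 3 had an interval above and 2 below 1 in doxorubicin over control (20% and 13.3%). Over all genes these shares were 9.08% and 19.2%. With TMM size factors 4 of the 15 lay above and 2 below (26.7% and 13.3%), against 13.5% and 10.5% of all genes. Ppid, the cyclophilin that binds Hsp90, had 133 CPM in doxorubicin and 108 CPM in control (1.23-fold, 1.16 to 1.31) and lay above 1 in 9 of 9 classes (intervals in 3). Ptges3, the p23 co-chaperone, had 36.5 and 32.0 CPM (1.14-fold). Unc45a, a myosin co-chaperone, had 29.9 and 37.6 CPM (0.794-fold, 0.710 to 0.887), and Ppp5c, an Hsp90-bound phosphatase, 28.6 and 35.7 CPM (0.802-fold). Of 14 other J-domain genes 1 had an interval above and 1 below 1 (7.14% each, at or under the shares of all genes), and 2 and none with TMM size factors. Dnajb6, which suppresses aggregation of polyglutamine proteins, had 127 CPM in doxorubicin and 113 CPM in control (1.12-fold, 1.06 to 1.19), and Dnajb5 37.7 and 42.02 CPM (0.897-fold), whose interval held 1 with TMM size factors.

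Of 8 other Hsp70 and Hsp110 genes measured, 1 had an interval above 1 and none below (12.5% and 0%, against 9.08% and 19.2% of all genes). It was Hspa2, with 23.4 CPM in doxorubicin and 17.4 CPM in control (1.34-fold, 1.16 to 1.56). By class, none of 35 pairs had an interval above 1 and 2 had it below (5.71%), against 5.38% and 8.33% of all pairs. The stress-inducible Hspa1a had 72, 45 and 54 UMIs in the doxorubicin plus ACY-1083, doxorubicin and control libraries, and Hspa1b had 59 UMIs in doxorubicin and 41 in control (1.29-fold, 0.851 to 1.97). None of 9 chaperonin genes had an interval off 1, with Cct4 the highest (1.12-fold) and Cct7 the lowest (0.954-fold). With TMM size factors 8 had a ratio above 1, and 5 an interval above 1 (55.6%, against 13.5% of all genes). Of 16 endoplasmic reticulum genes, 3 lay above and 4 below (18.8% and 25%, against 9.08% and 19.2% of all genes), and 3 and 1 with TMM size factors. They included Manf, a secreted stress-responsive factor, at 41.95 CPM in doxorubicin and 32.8 CPM in control (1.28-fold, 1.15 to 1.42), Pdia3, a disulfide isomerase, at 1.16-fold, Creld2 at 0.813-fold and the stress sensor Atf6 at 0.862-fold. Hsf1, the heat shock transcription factor, had 61.1 CPM in doxorubicin and 70.7 CPM in control (0.864-fold, 0.799 to 0.935), whereas its binding partner Hsbp1 was at 1.13-fold. Hdac6 had 59.4 CPM in doxorubicin and 64.99 CPM in control (0.914-fold, 0.842 to 0.991), and with TMM size factors its interval held 1. The autophagy receptor Sqstm1 was at 1.14-fold (1.03 to 1.26). Hspb1 was the only small heat shock gene measured, with 109 UMIs in doxorubicin and 77 in control.

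Doxorubicin plus ACY-1083 was compared with doxorubicin in 88 pairs, and the ratios cannot be read as levels of the same quantity. In CPM 78 pairs had an interval below 1 and 7 above, where all genes gave 41.5% and 35.5%. At least 1.5-fold lower were 76 pairs (35.3% of all pairs) and higher 2 (31.6%), and the median log2 ratio was -1.22 against -0.13 over all pairs. Counted as UMIs per nucleus the median turned to 0.35, with 55 pairs above and 2 below 1. In whole libraries 9 of the genes were at 0.371-fold to 0.575-fold in CPM with intervals below 1 (51% of all genes), 9 at least 1.5-fold lower (39.7%) and none 1.5-fold higher (30.1%). Hspa4 was at 1.28-fold (1.21 to 1.36), an interval above 1 as for 37.9% of all genes, and above 1 in 9 of 9 classes. TMM size factors shifted every log2 ratio of whole libraries by 0.30 and left these directions, with Hspa4 at 1.58-fold and Hsph1 at 0.707-fold.

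The ratio followed intron length. Over 16370 genes Spearman's rho between intron length and log2 ratio was 0.64, and the median log2 ratio was -1.37 for genes with introns up to 2 kb, -1.09 for 2 to 5 kb, -0.61 for 5 to 20 kb and -0.05 for 20 to 50 kb. For doxorubicin over control rho was -0.10 over 13798 genes in whole libraries, and by class it was furthest from 0 in oligodendrocytes (-0.29). Hspa4 has 35.1 kb of intron and Hsph1 14.8 kb, while the other 8 genes have 1.26 to 8.19 kb. Set against the median of its own bin, 7 genes lay lower and 3 higher. Hsp90aa1 and Dnaja1 lay 0.65 and 0.61 log2 units below theirs, Dnajb1 0.44 and Hspa4 0.41 above, and Hspa5 and Cryab within 0.1. No source used here states the intron setting of the counting, and treatment cannot be told apart from this difference between libraries. A return towards control after ACY-1083 could therefore not be assessed for these genes from CPM.

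**Figure D5:**
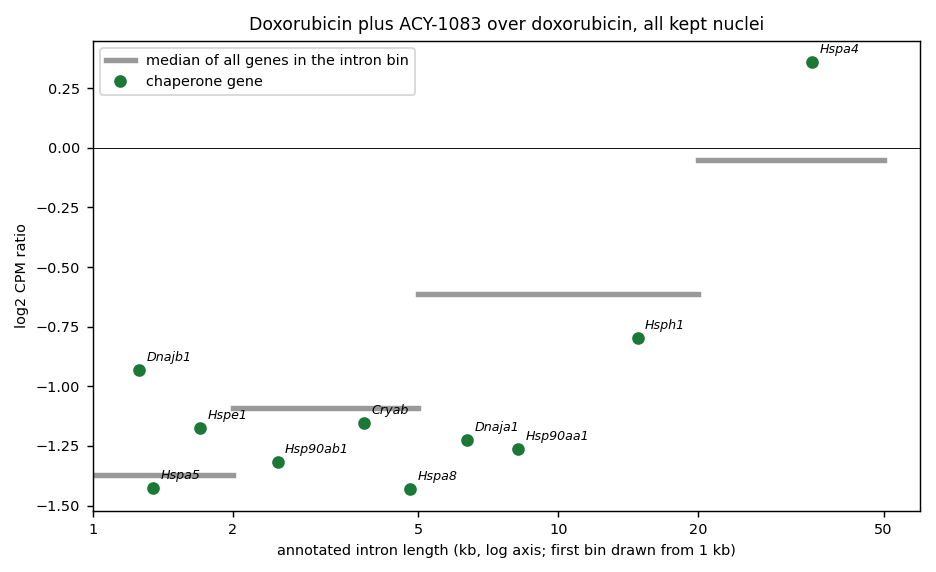
Log2 CPM ratio of doxorubicin plus ACY-1083 over doxorubicin in all kept nuclei (y axis) against annotated intron length (x axis, logarithmic) for the 10 genes, with grey bars for the median of all genes in each intron bin. Hspa4, with 35.1 kb of intron, lies above 0, and the other 9 genes lie below it.

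The likeness of class patterns was measured as Pearson's r of log2(CPM + 10) over 24 points, 12 classes in the doxorubicin and control libraries, among 4414 genes. Points of a library share its depth and free RNA, so r is a description. Hspa8 was most like Hspa5 and Hsp90aa1, with r of 0.98 for each. Hsp90aa1 was next like Rpl13a and Tpt1, Hsp90ab1 like Lars2, Gm42418 and Atp6v0c, Hspa5 like Eef1a1 and Ubb, and Hspa8 like Rps27a, with r of 0.96 to 0.98. Lars2 and Gm42418 were also leading genes of unnamed cluster 15, which mitochondrial transcripts and Ttr led. Cryab was most like Plaat3 (0.95), Adipor2 and Ddr1, and Hspe1 like Prxl2a (0.92), Metrn and Tspan3. Lower likeness was found for Hspa4 (Tgfbr2, Lamp2 and Zfp106, to 0.82), Hsph1 (with r of 0.77 for Vldlr and 0.76 for Prkcq), Dnaja1 (Morf4l1, Timp2 and 1810026B05Rik, to 0.81) and Dnajb1 (Msantd4, Micall1 and Arsg, to 0.84). Hsph1 had r of 0.24 with Hsp90aa1 and 0.29 with Hspa8.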

How the data were processed

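Each deposited matrix gives unnormalized UMI counts by gene and nucleus barcode. Cell Ranger 5.0.0 made that of doxorubicin plus ACY-1083 and 4.0.0 the others, per the file headers, and mm10 and Cell Ranger 6.0.0 stand in the submitters' processing notes. Each group was 1 library of 4 pooled mice.

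Nuclei with at least 300 genes, under 5% mitochondrial UMIs and a Scrublet score up to 0.25 were kept (scanpy 1.11.5). The automatic Scrublet threshold marked 1, 1 and 3 barcodes and had not worked, so the fixed score was used, which removed 2.82%, 4.69% and 4.14% of the barcodes of doxorubicin plus ACY-1083, doxorubicin and control. Counts were scaled to 10000 and logged, 2000 variable genes (chaperone lists left out) were scaled within each library, and 30 components, 15 neighbours and Leiden resolution 1 gave the clusters. Clusters were named from marker lists by their mean log2 fold (20 CPM added) and leading 10 genes. The Scrublet score, the scaling within libraries and details of naming were set after seeing the data, by how clusters could be named. Of 25 clusters 4 stayed unnamed, with 3030 of 33948 kept nuclei.

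UMIs were summed per class and library. CPM has exact Poisson and CPM ratios exact Clopper-Pearson intervals conditional on the sum, at 95%, and log2 ratios have 0.5 counts added. Intervals cover counting error only. Annotation was GENCODE on GRCm38, matching 32235 of 32285 genes. The ratio code was tested on simulated data. The genes and lists were chosen with earlier results of these data known. All 10 genes were named in every class. Of other lists, the 2 highest and 2 lowest ratios and genes with an interval off 1 in at least 3 classes were named, and per gene the 3 most alike, of which 1 is not reported here.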

Additional observations from a re-analysis of the deposited data

How the results depend on the processing

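For doxorubicin over control, the median log2 ratio of 0.10 ran from 0.09 to 0.14 under the 10 alternatives tried (TMM size factors, Malat1 and mitochondrial genes left out of totals, at least 600 genes per nucleus, doublets kept, Leiden resolution 0.5, libraries clustered apart, thinning to 1000 UMIs, at least 20 UMIs for a pair and, chosen after seeing the data, Leiden resolution 2 and leaving out choroid plexus epithelium and fibroblasts). The count with an interval above 1 was 6 of 48 pairs after thinning, against 15. The count below 1 was 1 after thinning and 2 with TMM size factors, against 4. Leiden resolution 0.5 left 10 classes, thinning 9 and clustering apart 6. For doxorubicin plus ACY-1083 over doxorubicin the median of -1.22 moved to -0.84 with TMM size factors, -1.44 without Malat1 and mitochondrial genes, -1.05 with libraries clustered apart and -1.11 with 20 UMIs for a pair. Per nucleus it turned to 0.35, with 55 pairs above and 2 below 1. Pairs above 1 were 1 without Malat1 and mitochondrial genes and 3 both after clustering apart and after thinning, against 7, and pairs below 1 were 39 and 42 under those last settings, against 78, with fewer classes measured. A median was taken as moved beyond 0.1. Of the 9 list medians, 3 changed sign with TMM size factors, to 0.05 for other Hsp70 and Hsp110 genes, 0.01 for heat shock factors and 0.04 for HDAC6 and its partners, none by over 0.1. Of 30 most alike genes 26 remained with 1 CPM added. No paired analysis was possible because each group has 1 library.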

Other observations

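Ependymal-like nuclei, too few for the comparisons (28, 38 and 31 in doxorubicin plus ACY-1083, doxorubicin and control), had the highest Hsph1 of any class, at 281, 635 and 357 CPM from 19, 38 and 14 UMIs. Hsp90aa1 had 458, 1036 and 1044 CPM there, from 31, 62 and 41 UMIs. Each value rests on few UMIs.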
